A study of Gallus gallus with 16 samples.

Results

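Enteroendocrine cells are scattered hormone-secreting cells of the gut epithelium, and 10 genes of these cells were followed in the jejunum of broiler chickens: SCG2, CPE, RIMBP2, CHGA, GCG, CCK, NTS, SST, GHRL and TPH1. They were taken by symbol, where the platform annotation gave that symbol alone on a probe set, and where a gene had more than 1 such probe set, that of the highest overall mean stood for it. Of the 10 listed genes 9 were measured in this way, among 11528 genes with such a symbol and 20804 probe sets in all. SST was not analysed here. The symbol SCG2 rests on the platform annotation, whose Entrez number for this gene was not found in the RefSeq gene table, although the same symbol was. The Entrez numbers of the other 8 measured genes were found there.

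The tissue was taken on day 21 from male broilers fed diet H, diet F, diet E or diet A, with 4 birds and 4 arrays per diet. The series title names saponins and a blend of essential oils of oregano, thyme, rosemary and star anise, given to growing broilers. The labels used here do not say what each letter contained or which was the control, and each of the 6 pairs was therefore tested. Levels are log2 array intensities as deposited, a difference of 1 is a doubling, and each difference takes the diet of the earlier letter from that of the later.

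In the gut epithelium, nutrients and other contents of the lumen act on the exposed tip of enteroendocrine cells, which release peptide hormones or serotonin at their base. The hormones are made as larger precursors, cut and trimmed inside secretory granules, and act on nearby nerves and epithelium or travel in the blood to pancreas, gallbladder and brain. In birds as in mammals, cholecystokinin and the peptides of proglucagon are among the hormones of the small intestine. In whole jejunum, more cells of this kind and more RNA per cell cannot be told apart.

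The arrays were alike in scale, with medians between 5.94 and 6.10 and lower quartiles between 4.45 and 4.61, and correlated with a mean r of 0.977 inside a diet and 0.976 across diets, over probe sets. Title numbers were split here, by a chosen cut, into an upper range (over 25) and a lower range (up to 25), each holding 2 birds per diet. The labels name no such ranges and do not say what, if anything, separates them. Nothing in the labels ties birds to pens. The small number of arrays, 4 a diet, limits the precision. GHRL lay under the array's own lower quartile on all 16 arrays and RIMBP2 on 10 of them, and what background adds to their differences was not tested. The other 7 measured genes were above the lower quartile on every array.

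Among the 9 measured genes 8 had their highest diet mean in diet H, and the exception, TPH1, had it in diet A. The share of all probe sets with their highest mean in diet H was not computed. The lowest mean was in diet F for 5 genes and in diet A for 4. None of the 9 passed limma's F test for any difference among the 4 diets, with adjusted p between 0.581 (RIMBP2) and 0.938 (TPH1) over all probe sets. The share of all probe sets that passed was likewise 0%. At an unadjusted p under 0.05, 4 of the 9 genes lay below the threshold (RIMBP2, CPE, SCG2 and GHRL), where 8.15% of all probe sets did. These genes were listed with earlier results of the same arrays known, so such counts are a description of the list.

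**Figure D1:**
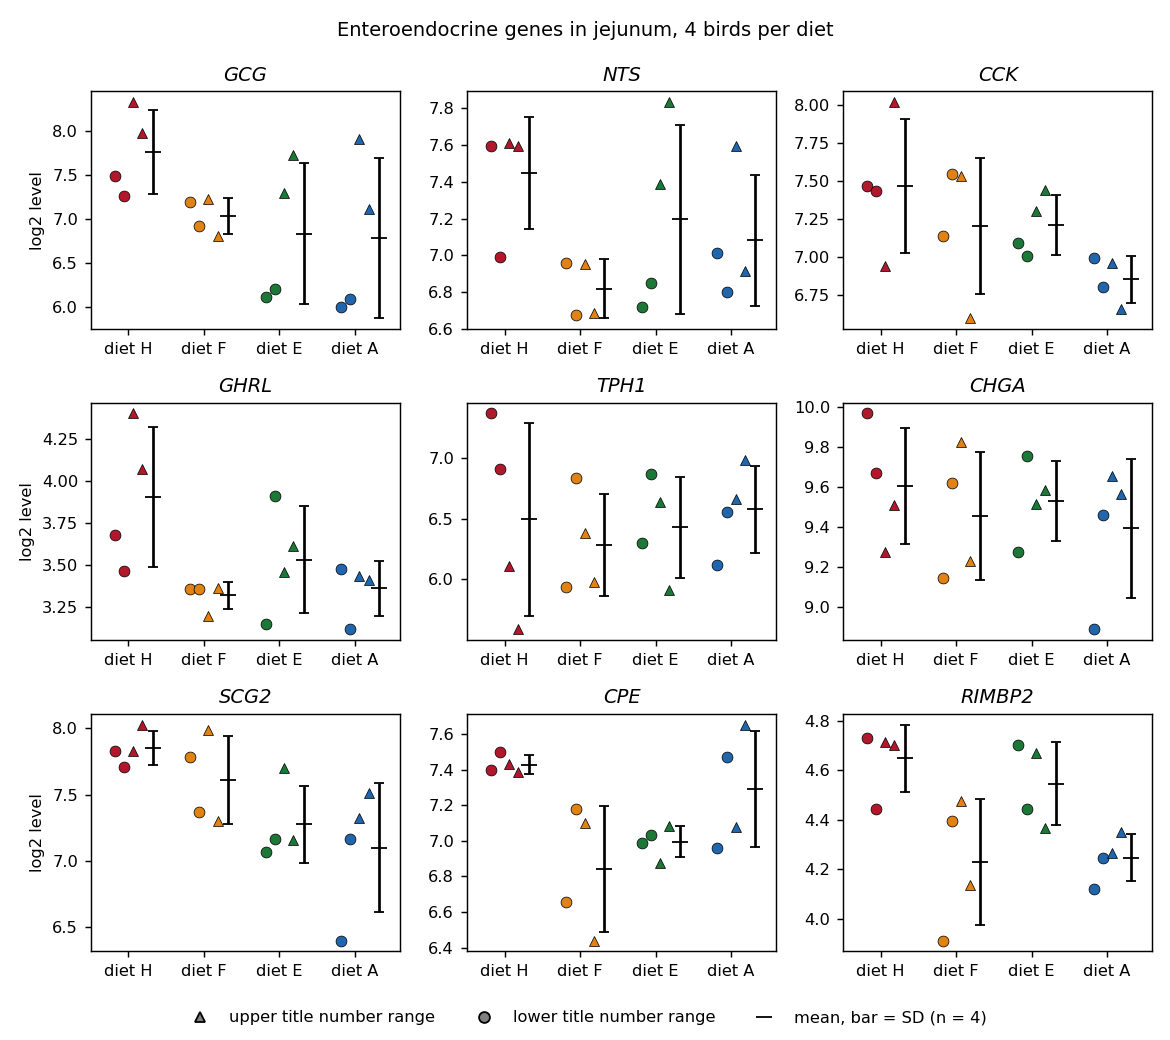
Log2 level of the 9 measured genes in every bird, by diet from H to A; triangles are birds of the upper and circles of the lower title number range, and the black bar is the diet mean with its SD (n = 4). Diet H holds the highest mean for every gene except TPH1, and for GCG the 2 triangles lie above the 2 circles in diets H, E and A.

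Among the hormone precursors, GCG encodes proglucagon, the source of glucagon and of the glucagon-like peptides, which in mammals come from the L cells of the distal gut. Its log2 levels were 7.48, 7.26, 8.32 and 7.97 in the birds on diet H. They were 7.19, 6.92, 7.23 and 6.81 on diet F, 6.12, 6.21, 7.29 and 7.72 on diet E, and 6.01, 6.09, 7.91 and 7.11 on diet A. Each bird on diet H was above each bird on diet F, while diets E and A each held 2 birds well below the rest and overlapped with diet H. The log2 difference of diet H minus diet A was 0.98 (SE 0.417, 95% interval 0.092 to 1.86), a 1.97-fold higher mean in diet H. With a limma adjusted p of 0.391 it did not pass. Diet H minus diet E was 0.93 (SE 0.417), with a limma adjusted p of 0.522. With a linear term for the title number these differences were 0.32 (limma adjusted p = 0.842) and 0.57 (limma adjusted p = 0.705). Sets of neighbouring title numbers rise with the diet letters, so this term and the diets are partly confounded. Each range of title numbers held 2 birds per diet, so a block for the upper or lower range could not change diet H minus diet A. With this block its limma adjusted p was 0.102. With birds of neighbouring title numbers as a random block the limma adjusted p was 0.564.

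NTS encodes the precursor of neurotensin, a peptide of gut N cells and of neurons. Its levels were 7.60, 6.99, 7.61 and 7.60 on diet H and 6.96, 6.68, 6.95 and 6.68 on diet F. On diet E they were 6.72, 6.85, 7.39 and 7.83, and on diet A 7.01, 6.80, 7.60 and 6.91. The 4 birds on diet H were above the 4 on diet F, and diets E and A covered most of the span of both. The log2 difference of diet H minus diet F was 0.63 (SE 0.235, 95% interval 0.13 to 1.13), with a limma adjusted p of 0.842. Diet F minus diet E was -0.38 (SE 0.235, limma adjusted p = 0.9998), and -0.17 without bird 4 on diet E.

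CCK encodes cholecystokinin, which in vertebrates slows gastric emptying and calls forth pancreatic enzymes and bile. Its levels were 7.47, 7.44, 6.94 and 8.02 on diet H, 7.14, 7.55, 7.53 and 6.60 on diet F, and 7.09, 7.01, 7.30 and 7.44 on diet E. On diet A they were 6.99, 6.80, 6.96 and 6.65. Diet A had the lowest mean and the smallest spread, and only 1 bird on diet H, the one at 6.94, lay inside its range. Diet H minus diet A was 0.61 (SE 0.224, 95% interval 0.14 to 1.09; limma adjusted p = 0.314). Diet E minus diet A was 0.36 (SE 0.224; limma adjusted p = 0.707), with groups that did not overlap by a narrow gap, 7.01 for the lowest bird on diet E and 6.99 for the highest on diet A. It was 0.57 within the upper range of title numbers and 0.15 within the lower.

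GHRL encodes ghrelin, which in chickens is made mostly in the proventriculus, the glandular stomach. Its levels were 3.68, 3.46, 4.40 and 4.07 on diet H and 3.36, 3.36, 3.20 and 3.37 on diet F. They were 3.15, 3.91, 3.46 and 3.61 on diet E and 3.48, 3.12, 3.44 and 3.41 on diet A. The 2 highest values of all 16 were birds 3 and 4 on diet H, whose birds all lay above those on diet F and overlapped with diets E and A. The log2 difference of diet H minus diet F was 0.58 (SE 0.189; limma adjusted p = 0.842) and diet H minus diet A was 0.54 (SE 0.189; limma adjusted p = 0.288). Within the upper range of title numbers diet H minus diet F was 0.95, and within the lower it was 0.21.

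TPH1 encodes tryptophan hydroxylase 1, the rate-limiting enzyme of serotonin synthesis in the enterochromaffin cells of the gut. Its levels were 7.37, 6.91, 6.11 and 5.59 on diet H, 5.94, 6.83, 6.38 and 5.98 on diet F, 6.30, 6.87, 6.64 and 5.91 on diet E, and 6.12, 6.55, 6.66 and 6.98 on diet A. The birds on diet H held both the highest and the lowest value of all 16. The diets with the smallest p were diet F minus diet A at -0.29 (SE 0.337, 95% interval -1.01 to 0.42; limma adjusted p = 0.877) and diet H minus diet F at 0.21 (SE 0.337; limma adjusted p = 0.905). Diet H minus diet F was -0.080 without bird 1 on diet H.

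The remaining genes serve the secretory granule. CHGA encodes chromogranin A, a granule protein used as a general marker of endocrine cells. Its levels were 9.97, 9.67, 9.27 and 9.51 on diet H, 9.15, 9.62, 9.82 and 9.23 on diet F, 9.27, 9.75, 9.51 and 9.58 on diet E, and 8.89, 9.46, 9.66 and 9.56 on diet A. The 4 diets overlapped, with means of 9.61 ± 0.29, 9.45 ± 0.32, 9.53 ± 0.20 and 9.39 ± 0.35 in diets H, F, E and A (SD, n = 4 each). The log2 difference of diet H minus diet A was 0.21 (SE 0.199, 95% interval -0.21 to 0.64; limma adjusted p = 0.712), and it was -0.22 within the upper range of title numbers and 0.65 within the lower. Without bird 1 on diet A it was 0.046, and without bird 1 on diet H it was 0.093. Diet H minus diet F was 0.15 (SE 0.199; limma adjusted p = 0.885), and within the upper range it was -0.13. It was 0.030 without bird 1 on diet H and 0.048 without bird 1 on diet F. A further probe set of CHGA, dimmer and correlated with the one used (Pearson r = 0.817 over the 16 arrays), gave 0.22 (SE 0.216) for diet H minus diet A.

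SCG2 encodes secretogranin II, a granin of endocrine cells and neurons from which secretoneurin is cut. Its levels were 7.83, 7.71, 7.83 and 8.03 on diet H, 7.78, 7.37, 7.99 and 7.30 on diet F, 7.07, 7.17, 7.70 and 7.16 on diet E, and 6.40, 7.16, 7.32 and 7.51 on diet A. Every bird on diet H lay above every bird on diets E and A, and diet F lay across the gap. The log2 difference of diet H minus diet A was 0.75 (SE 0.222, 95% interval 0.28 to 1.23). It had the smallest p among the 9 genes in that pair, and its limma adjusted p of 0.225 did not pass. With single arrays left out the difference ran from 0.52 to 0.89. The 0.52 came without bird 1 on diet A (limma adjusted p = 0.549). Diet H minus diet E was 0.58 (SE 0.222; limma adjusted p = 0.509).

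CPE encodes carboxypeptidase E, which trims basic residues from the ends of cut prohormones. Its levels were 7.40, 7.50, 7.43 and 7.39 on diet H, 6.66, 7.18, 7.10 and 6.44 on diet F, 6.99, 7.03, 6.88 and 7.08 on diet E, and 6.96, 7.47, 7.08 and 7.65 on diet A. Diet H was the tightest group, with an SD of 0.052, and lay wholly above diets F and E, whereas 2 birds on diet A were as high as those on diet H and 2 were lower. The log2 difference of diet H minus diet F was 0.58 (SE 0.171, 95% interval 0.22 to 0.95; limma adjusted p = 0.842). Diet F minus diet A was -0.45 (SE 0.171; limma adjusted p = 0.721).

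RIMBP2 encodes a RIM-binding protein, which in mammalian neurons and endocrine cells holds calcium channels close to the vesicle release sites. Its levels were 4.73, 4.44, 4.71 and 4.70 on diet H, 3.91, 4.40, 4.47 and 4.14 on diet F, 4.70, 4.44, 4.67 and 4.37 on diet E, and 4.12, 4.24, 4.27 and 4.35 on diet A. The birds on diets H and E were above all birds on diet A, and diet F spread from below diet A into the range of diet E. Diet H minus diet F was 0.42 (SE 0.132; limma adjusted p = 0.842) and diet H minus diet A was 0.40 (SE 0.132; limma adjusted p = 0.257).

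Set pair by pair, diet H was higher than diet A for 8 of the 9 genes, with a median difference of 0.40 against 0.0010 over all probe sets. It was higher than diet E for 9 of 9 (median 0.25 against -0.030) and higher than diet F for 9 of 9 (median 0.42 against -0.025). These 3 comparisons share the birds on diet H. None of the genes passed in any pair. The share of all probe sets called at a limma adjusted p under 0.05 was 0.00481% for diet H minus diet A, which is 1 probe set, and 0% for each of the other 5 pairs.

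At an unadjusted p under 0.05, the genes below the threshold in diet H minus diet A were SCG2, RIMBP2, GHRL, CCK and GCG, 5 of 9, beside 11.5% of all probe sets. In diet H minus diet E they were SCG2, CPE and GCG, 3 of 9 beside 9.52%. In diet H minus diet F they were CPE, RIMBP2, GHRL and NTS, 4 of 9 beside 5.27%. All of these were higher in diet H. Between the other diets the counts were 1 of 9 beside 7.71% for diet E minus diet A (RIMBP2, higher in diet E), 2 of 9 beside 6.83% for diet F minus diet A (SCG2 higher and CPE lower in diet F) and 1 of 9 beside 2.95% for diet F minus diet E (RIMBP2, lower in diet F).

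Groups that did not overlap at all were seen in diet H against diet F for CPE, GCG, NTS and GHRL, 4 of 9 genes, where 4.04% of all probe sets had such groups. The count was 2 of 9 in diet H against diet A (SCG2 and RIMBP2; 6.07% of all probe sets) and 2 of 9 in diet H against diet E (SCG2 and CPE; 5.33%). It was 2 of 9 in diet E against diet A (CCK and RIMBP2, 3.86%). It was 0 of 9 in diet F against diet A (4.93%) and in diet F against diet E (2.01%). Some gaps were narrow, as for CCK. The lowest bird on diet H and the highest on diet F were 7.26 and 7.23 for GCG, and 6.99 and 6.96 for NTS. Those of SCG2 in diet H against diet E were 7.71 and 7.70. Those of RIMBP2 in diet E against diet A were 4.37 and 4.35. For GCG, diet H minus diet F had an unadjusted limma p of 0.102.

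**Figure D2:**
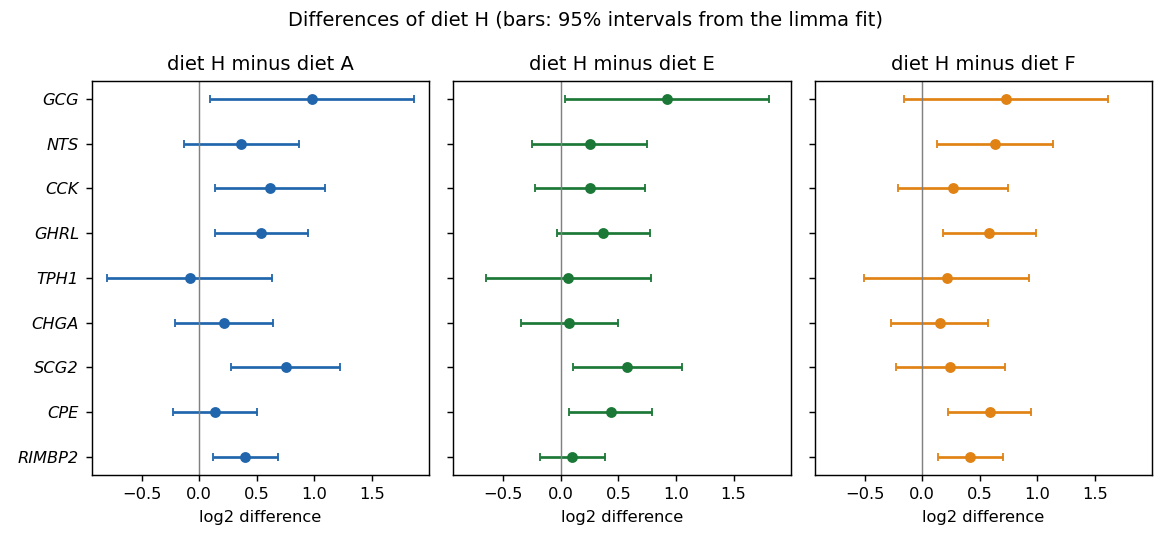
Log2 difference of diet H minus diet A, diet E and diet F for each gene, with 95% intervals from the limma fit over all 16 arrays; the vertical line marks 0. All points but that of TPH1 against diet A lie to the right of 0, and the intervals of 5, 3 and 4 genes leave out 0 before adjustment.

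The range of the title numbers went with the level of GCG. Over both ranges and with the diets in the model, GCG was 0.89 higher in the upper range (SE 0.195; limma adjusted p = 0.0115), with means of 7.55 ± 0.51 in the upper and 6.66 ± 0.61 in the lower range (SD, n = 8 each). Birds of neighbouring title numbers counted as independent here, and no fit took them as a random block for this comparison. GCG was called in each of the 16 fits that left out a single array, with differences from 0.76 to 1.01. Such calls were frequent: 8.39% of all probe sets passed in this comparison, which was added after the data had been seen, and 1 of the 9 genes did. At an unadjusted p under 0.05 the share was 25.2%, and 2 of the 9 genes, GCG and NTS, lay below it.

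The upper minus lower difference of GCG was 0.78 in diet H, -0.033 in diet F, 1.34 in diet E and 1.46 in diet A, each from 2 birds against 2. The test of whether it differed between diets had an unadjusted p of 0.0070 in limma and an adjusted p of 0.734. NTS was 0.37 higher in the upper range (SE 0.140; limma adjusted p = 0.115). TPH1 differed by -1.28 between the ranges in diet H and by 0.48 in diet A, and the limma adjusted p for a difference between diets was 0.766. What the range stands for cannot be read from the labels. Its part in the diet differences was examined by fits within each range and by a term for the title number beside the diets. The difference of GCG between diets H and A was 0.64 within the upper range and 1.32 within the lower. With the range as a block, the limma adjusted p for diet H minus diet A was 0.102 for GCG and 0.0911 for SCG2. With birds of neighbouring title numbers as a random block instead, the limma adjusted p was 0.564 for GCG and 0.435 for SCG2. With a linear term for the title number the adjusted p of limma for the same pair was 0.842 for GCG, with a difference of 0.32, and 0.582 for SCG2, with a difference of 0.54. Inside a range the numbers go up with the letters of the diets, so a linear trend and the diets are partly confounded. None of the 9 genes passed in any pair in any of these fits. Of all 20804 probe sets, 111 passed in diet H minus diet A with the range as a block, and 1 with the linear term.

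The genes were next compared over the 16 birds, with Pearson r and Spearman rho for the 36 pairs of measured genes and two-sided permutation tests of 100000 resamples. The shuffles crossed diets and, over all 16 birds, the title number ranges. They made no allowance for subtracted diet means. Differences between ranges, and between diets where their means were kept, can therefore add to a correlation and its test. Of the 36 pairs 32 had a positive r and the median was 0.36. The same share over pairs of other genes was not computed. The negative ones paired TPH1 with GCG, CCK, NTS and GHRL, between -0.12 and -0.19. For these pairs r was between 0.45 and 0.57 within the lower range and between -0.53 and -0.32 within the upper. None of them passed in either range, and the difference between ranges was not tested. GCG and NTS went together most closely (r = 0.782, permutation p = 0.00060, adjusted p = 0.0216; rho = 0.785, adjusted p = 0.0234; n = 16). With each diet's mean subtracted r was 0.852 (adjusted p = 0.00216), and without the 2 birds farthest from the median of GCG it was 0.805 (adjusted p = 0.0266). Within the ranges r was 0.856 in the upper (exact permutation p = 0.0082, adjusted p = 0.148, n = 8) and 0.572 in the lower range (exact permutation p = 0.0954, adjusted p = 0.382, n = 8). The rho there was 0.833 in the upper (exact permutation p = 0.0154, adjusted p = 0.277) and 0.333 in the lower range (exact permutation p = 0.428, adjusted p = 0.670).

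SCG2 and GCG had an r of 0.692 (permutation p = 0.0027, adjusted p = 0.0488) and a rho of 0.671 (adjusted p = 0.0683). This r did not hold below the threshold in each other setting. It was 0.558 without the 2 birds farthest from the median of SCG2 (adjusted p = 0.402), and 0.566 with the diet means subtracted (adjusted p = 0.189). Within the upper range it was 0.247 and did not pass either (exact permutation p = 0.541, adjusted p = 0.748, n = 8). Within the lower range it was 0.885 and passed (exact permutation p = 0.0017, adjusted p = 0.0308, n = 8). CHGA and TPH1, both genes of serotonin-storing enterochromaffin cells, had an r of 0.634 (permutation p = 0.0080, adjusted p = 0.0964) and a rho of 0.650 (adjusted p = 0.0706). This r did not pass. With the diet means subtracted it was 0.687 (adjusted p = 0.0589) and rho was 0.709 (adjusted p = 0.0509), and without the 2 birds farthest from the median of CHGA r was 0.544 (adjusted p = 0.402). The r was 0.354 within the upper range (exact permutation p = 0.394, adjusted p = 0.673, n = 8) and 0.946 within the lower (exact permutation p = 0.00077, adjusted p = 0.0277, n = 8).

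**Figure D3:**
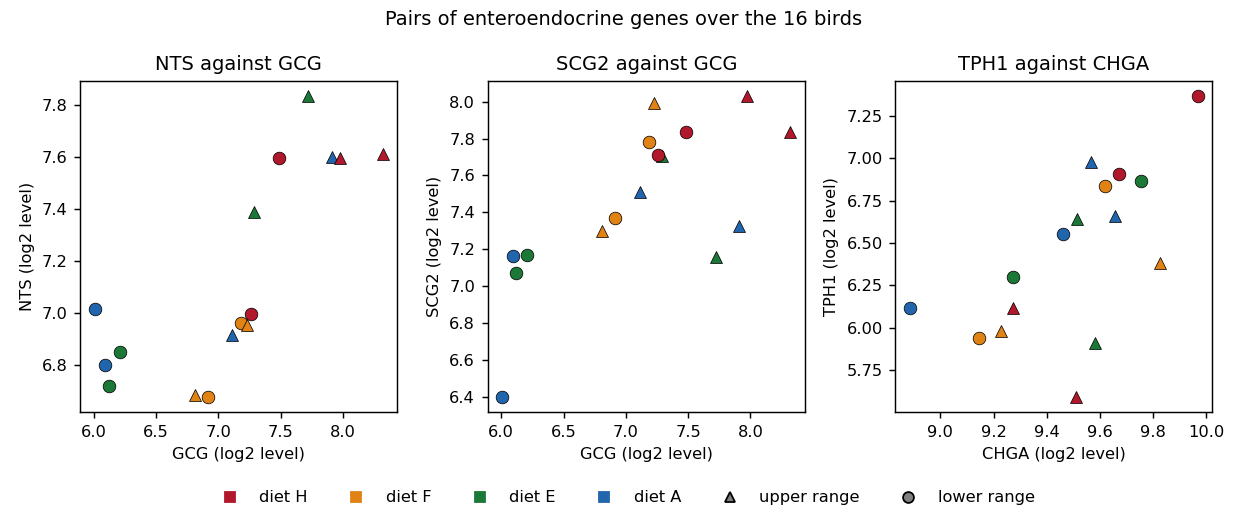
Log2 levels of NTS and of SCG2 against GCG, and of TPH1 against CHGA, each point a bird coloured by diet, with triangles for the upper and circles for the lower range of title numbers. Over all 16 birds r is 0.782 for NTS with GCG, 0.692 for SCG2 with GCG and 0.634 for TPH1 with CHGA, and a difference in r between the ranges was not tested.

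The share of other genes that reached the r of these pairs differed from gene to gene. Of 11519 other genes with a single symbol, 449 (3.90%) had an r with GCG at least as high as that of NTS, while 28 (0.243%) had an r with NTS at least as high as that of GCG. For CHGA, 85 (0.738%) reached the r of TPH1, and for TPH1 151 (1.31%) reached that of CHGA. For SCG2, 325 (2.82%) reached the r of GCG, and for GCG 928 (8.06%) reached that of SCG2. The genes most like GCG over the 16 arrays were PDZD8 (r = 0.955), PPP1R12A (r = 0.940) and AKAP17A (r = 0.929). Those most like SCG2 were SUCO (r = 0.949), ARIH1 (r = 0.918) and ANXA2 (r = 0.909), and those most like CHGA were GYG2 (r = 0.848), ODC (r = 0.788) and NEK8 (r = 0.782).

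Further genes of the same system, in 5 lists, and markers of 7 other cell types were read in the same fit. Of these 110 measured genes 0 passed over the 4 diets or in any pair in limma. At an unadjusted p under 0.05 over the 4 diets there were 8 of 110, beside 8.15% of all probe sets. Of 17 other gut hormone genes 10 were measured, 3 of them, TAC1 and GAL included, with a mean under the lowest of the arrays' lower quartiles. Diet H was higher than diet A for 4 of 10 (median difference -0.066), and 0 of them had an unadjusted p under 0.05 in any pair or over the 4 diets in limma. TAC1, the precursor of substance P, had means of 3.62 ± 0.043, 3.54 ± 0.16, 4.22 ± 0.99 and 4.05 ± 0.38 in diets H, F, E and A (SD, n = 4 each), and diet F minus diet E was -0.68 (SE 0.343; limma adjusted p = 0.9998). GAL, the precursor of galanin, had means of 2.29 ± 0.15, 2.32 ± 0.070, 2.52 ± 0.14 and 2.33 ± 0.16 in diets H, F, E and A (SD, n = 4 each), and diet H minus diet E was -0.22 (SE 0.112; limma adjusted p = 0.533).

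Of 24 other granule and processing genes 17 were measured, 5 of them, CHGB included, with a mean under the lowest of the arrays' lower quartiles. Diet H was higher than diet A for 11 of 17 (median difference 0.061). CHGB, which encodes the granule protein chromogranin B, had means of 3.54 ± 0.23, 3.51 ± 0.16, 3.49 ± 0.37 and 3.07 ± 0.18 in diets H, F, E and A (SD, n = 4 each), and diet H minus diet A was 0.48 (SE 0.174; limma adjusted p = 0.314). DDC encodes the decarboxylase of the last step of serotonin synthesis. It had means of 7.84 ± 0.32, 8.29 ± 0.59, 7.70 ± 0.47 and 8.49 ± 0.44 in diets H, F, E and A (SD, n = 4 each), with diet H lower than diet A, and diet E minus diet A was -0.79 (SE 0.301; limma adjusted p = 0.613).

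Among 18 transcription factors of enteroendocrine development 6 were measured, 1 of them with a mean under the lowest of the arrays' lower quartiles. Diet H was higher than diet A for 3 of 6 (median difference -0.0079). RFX3, a factor of endocrine cell maturation in mice that also controls cilia genes, had means of 4.67 ± 0.13, 4.92 ± 0.078, 4.97 ± 0.057 and 5.04 ± 0.17 in diets H, F, E and A (SD, n = 4 each), and diet H minus diet A was -0.38 (SE 0.105; limma adjusted p = 0.216). MYT1, a zinc finger factor of neurons and endocrine cells, had means of 4.76 ± 0.13, 5.11 ± 0.11, 5.03 ± 0.31 and 4.78 ± 0.20 in diets H, F, E and A (SD, n = 4 each), and diet H minus diet F was -0.35 (SE 0.148; limma adjusted p = 0.842).

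Of 18 receptors and transporters through which such cells sense nutrients 12 were measured, 2 of them with a mean under the lowest of the arrays' lower quartiles. Diet H was higher than diet A for 8 of 12 (median difference 0.17). SLC15A1, the peptide transporter that enterocytes also carry, had means of 11.50 ± 0.23, 11.23 ± 0.29, 11.47 ± 0.19 and 10.93 ± 0.47 in diets H, F, E and A (SD, n = 4 each), and diet H minus diet A was 0.57 (SE 0.211; limma adjusted p = 0.318). CASR, the calcium-sensing receptor, had means of 4.58 ± 0.27, 4.79 ± 0.17, 4.63 ± 0.18 and 4.36 ± 0.097 in diets H, F, E and A (SD, n = 4 each), and diet F minus diet A was 0.43 (SE 0.141; limma adjusted p = 0.721).

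A list of 22 genes held receptors for gut hormones and the serotonin transporter SLC6A4. Of these 19 were measured, 5 of them with a mean under the lowest of the arrays' lower quartiles. Diet H was higher than diet A for 9 of 19 (median difference -0.013), and diet H was higher than diet E for 5 of 19 (median difference -0.20). VIPR2, a receptor for vasoactive intestinal peptide, had means of 3.93 ± 0.13, 4.06 ± 0.098, 4.37 ± 0.14 and 4.04 ± 0.12 in diets H, F, E and A (SD, n = 4 each), and diet H minus diet E was -0.44 (SE 0.107; limma adjusted p = 0.479). GLP1R, the receptor of glucagon-like peptide 1, had means of 3.70 ± 0.19, 4.07 ± 0.14, 4.11 ± 0.26 and 3.86 ± 0.18 in diets H, F, E and A (SD, n = 4 each), and diet H minus diet E was -0.42 (SE 0.144; limma adjusted p = 0.492). All diet means of both genes lay under the lowest of the arrays' lower quartiles.

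**Figure D4:**
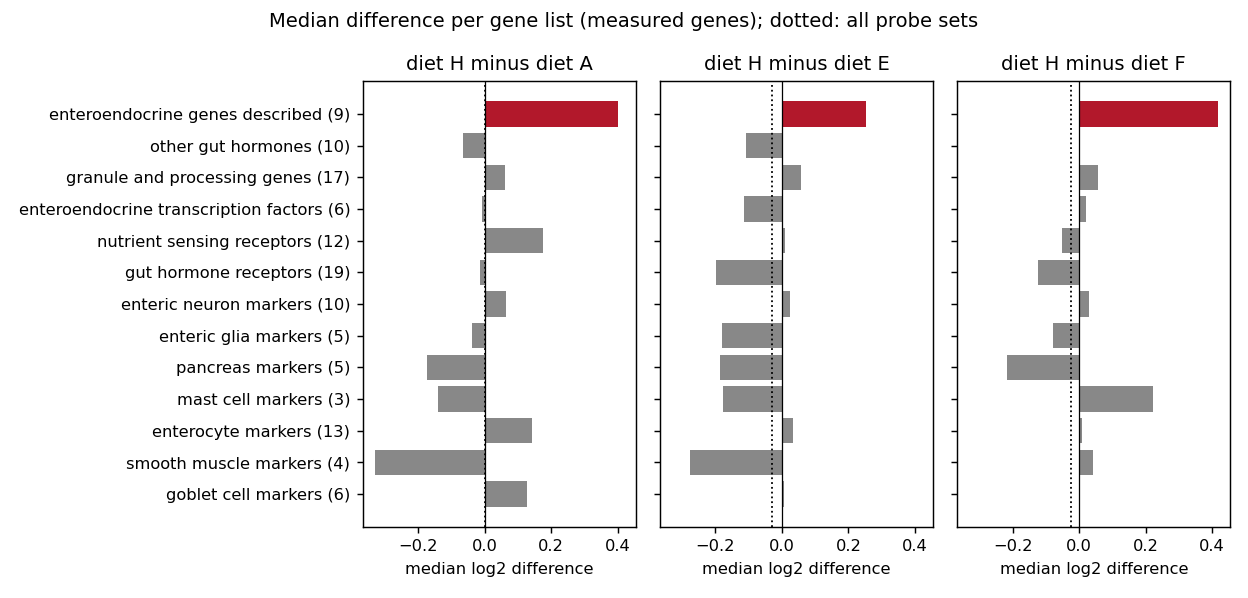
Median log2 difference of diet H minus diets A, E and F over the measured genes of each list, with the number of measured genes in brackets; bars start at 0 and the dotted line is the median of all 20804 probe sets. The 9 enteroendocrine genes have medians of 0.40, 0.25 and 0.42, and the medians of the other lists lie between -0.33 and 0.22.

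Genes of this list such as SCG2, CPE, RIMBP2, CHGA and NTS are also made by neurons, so markers of enteric neurons were read beside them. Of 18 such markers 10 were measured, 3 of them with a mean under the lowest of the arrays' lower quartiles. Their mean over the list ran from 4.68 to 4.96 in diet H, from 4.74 to 4.98 in diet F, from 4.70 to 4.88 in diet E and from 4.70 to 4.86 in diet A, and these ranges overlap. Diet H was higher than diet A for 6 of 10 (median difference 0.065). UCHL1, a ubiquitin hydrolase of neurons, had means of 4.57 ± 0.61, 4.56 ± 0.31, 4.31 ± 0.26 and 4.87 ± 0.40 in diets H, F, E and A (SD, n = 4 each), and diet E minus diet A was -0.57 (SE 0.272; limma adjusted p = 0.655). TUBB3, a neuronal tubulin, had means of 7.43 ± 0.40, 7.35 ± 0.39, 7.07 ± 0.22 and 7.09 ± 0.24 in diets H, F, E and A (SD, n = 4 each), and diet H minus diet E was 0.36 (SE 0.215; limma adjusted p = 0.582).

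Markers of enteric glia were measured for 5 of 8 genes, 2 of them with a mean under the lowest of the arrays' lower quartiles. The list mean per array ran from 4.77 to 5.20 in diet H, from 4.86 to 5.07 in diet F, from 4.80 to 5.20 in diet E and from 4.84 to 5.07 in diet A, and diet H was higher than diet A for 2 of 5 (median difference -0.038). For GFAP, an intermediate filament protein, diet E minus diet A was 0.40 (SE 0.133; limma adjusted p = 0.613), and for FOXD3, a factor of neural crest cells, diet H minus diet E was -0.23 (SE 0.135; limma adjusted p = 0.571). Markers of the pancreas were measured for 5 of 12 genes, 2 of them with a mean under the lowest of the arrays' lower quartiles. Their mean over the list ran from 4.96 to 5.25 in diet H, from 5.14 to 5.43 in diet F, from 5.18 to 5.30 in diet E and from 5.11 to 5.39 in diet A, and diet H was higher than diet A for 0 of 5 (median difference -0.17). For PDX1, a homeobox factor also made in the duodenal epithelium, diet H minus diet A was -0.55 (SE 0.176; limma adjusted p = 0.255), and for CTRC, a digestive protease, diet H minus diet F was -0.22 (SE 0.134; limma adjusted p = 0.842).

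Markers of mast cells, which can also make serotonin, were measured for 3 of 6 genes, none of them with a mean under the lowest of the arrays' lower quartiles. The list mean per array ran from 5.05 to 5.56 in diet H, from 4.87 to 5.29 in diet F, from 5.16 to 5.70 in diet E and from 5.33 to 5.68 in diet A, and diet H was higher than diet A for 0 of 3 (median difference -0.14). For HDC, the histamine-forming decarboxylase, diet F minus diet A was -0.58 (SE 0.274; limma adjusted p = 0.731), and for KIT, the stem cell factor receptor, diet F minus diet A was -0.36 (SE 0.213; limma adjusted p = 0.737). Markers of smooth muscle were measured for 4 of 8 genes, none of them with a mean under the lowest of the arrays' lower quartiles. Their mean over the list ran from 5.79 to 6.81 in diet H, from 5.76 to 7.01 in diet F, from 6.09 to 6.84 in diet E and from 6.08 to 6.81 in diet A, and diet H was higher than diet A for 0 of 4 (median difference -0.33). For ACTG2, an actin of visceral muscle, diet H minus diet A was -0.63 (SE 0.259; limma adjusted p = 0.371), and for SYNPO2, an actin-binding protein, diet F minus diet A was -0.46 (SE 0.265; limma adjusted p = 0.737).

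Markers of enterocytes were measured for 13 of 16 genes, none of them with a mean under the lowest of the arrays' lower quartiles. The list mean per array ran from 11.19 to 11.50 in diet H, from 11.16 to 11.40 in diet F, from 11.001 to 11.36 in diet E and from 10.86 to 11.35 in diet A, and diet H was higher than diet A for 11 of 13 (median difference 0.14). For CDX1, an intestinal homeobox factor, diet H minus diet F was -0.31 (SE 0.113; limma adjusted p = 0.842), and for EPCAM, an epithelial adhesion protein, diet H minus diet A was 0.30 (SE 0.116; limma adjusted p = 0.342). Markers of goblet cells were measured for 6 of 8 genes, none of them with a mean under the lowest of the arrays' lower quartiles. Their mean over the list ran from 9.89 to 10.31 in diet H, from 9.95 to 10.28 in diet F, from 10.03 to 10.31 in diet E and from 9.80 to 10.09 in diet A, and diet H was higher than diet A for 5 of 6 (median difference 0.13). For FCGBP, a mucus protein, diet H minus diet A was 0.72 (SE 0.212; limma adjusted p = 0.225), and for TFF3, a trefoil peptide of mucus, diet E minus diet A was 0.45 (SE 0.161; limma adjusted p = 0.613). The part of other cell types in the differences of the 9 enteroendocrine genes was not tested.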

How the data were processed

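Total RNA of the jejunum was isolated with Qiazol and RNeasy columns after DNaseI treatment, amplified with an Ambion WT Expression Kit and biotin-labelled for Affymetrix arrays, per the labels' protocols. The values were deposited on a scale read here as log2, from 0.785 to 14.48. GCOS 1.1.1 is named per the submitters' processing notes, while the log base, filters, summarization and normalization were not given in the sources used here. A fold change rests on reading the base as 2.

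The 10 genes and the lists beside them were chosen with earlier results of these data known. Genes were named through the platform annotation, which can be old (12300 probe sets with 1 symbol, 256 with several, 8248 with none). Diet means were fitted to the 16 arrays together with limma 3.58.1 in R 4.3.3, and the F test and each of the 6 pairs were adjusted by Benjamini-Hochberg over 20804 probe sets, with a threshold of 0.05. No filter was set on low values. Correlations were computed with numpy 2.4.6 in Python 3.11.15 and adjusted over 36 pairs of genes, since 9 genes were measured. In a test on simulated data, 200 of 20804 probe sets were changed. Between 72% and 81% were recovered at a log2 size of 1 and between 94% and 99% at a size of 2. There were 7 to 15 false calls per pair. The simulated noise was independent between birds and probe sets and held no title number range. These rates need not carry over to the 9 genes.

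For each of the 9 genes the text gives the difference and test of the 2 pairs of diets with the smallest p. Of each other list it gives the 2 genes with the smallest p over the 4 diets. For SCG2, CHGA and GCG it gives the 3 other genes with the highest Pearson r. Alternatives were median centring, quantile normalization, a filter on the lowest 25% of probe sets, the title number as a covariate or its range as a block, neighbouring numbers as a random block, an intensity trend, the arrays of 2 diets alone, the mean of all probe sets of a gene, and leaving out each array. The fits on the range itself and within each range were added after seeing the data. Promoter motifs were not analysed here.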

Additional observations from a re-analysis of the deposited data

Results flagged for a closer look

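In each diet the highest and the lowest bird were set against the other 3 for the 9 genes, which makes 36 groups of 4, and 4 groups held a bird far from the others. Chance gives about 1 in 20 groups. Bird 2 on diet H had the lowest NTS level of its diet, 6.99, and the other 3 lay within 7.60 and 7.61. The same bird had the lowest RIMBP2 level of its diet, 4.44, beside 4.70 to 4.73 in the others. Bird 3 on diet E had an SCG2 level of 7.70, above the other 3 at 7.07 to 7.17. Bird 3 on diet F had a GHRL level of 3.20, below the other 3 at 3.36 to 3.37, all under their arrays' lower quartiles.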

How the results depend on the processing

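Of the 9 genes 0 were called over the 4 diets or in any pair in limma under each alternative run, and GCG was the 1 gene called by title number range in each of its alternatives, with differences of 0.76 to 1.01 when single arrays were left out. RIMBP2 and GHRL were removed by the filter on low values and have no value there. The comparison by title number range was not run with neighbouring numbers as a random block. Signs turned for TPH1 in diet H minus diet F (from -0.080, without diet H replicate 1, to 0.51 with single arrays left out, and -0.33 among the upper title numbers), for CHGA in the upper range (diet H minus diet A -0.22, diet H minus diet F -0.13), and in the lower range for TPH1 in diet F minus diet A (0.052) and NTS in diet F minus diet E (0.034). The cause was not tested. Over all probe sets, the count over the 4 diets was 1 with median centring and 1 without the lowest 25%, against 0 as deposited. The count for diet H minus diet A, 1 as deposited, was 111 with the range as a block and 0 in fits of the 2 diets' arrays alone or of either range, which hold fewer samples. With single arrays left out it ran from 0 to 2, and the others from 0 to 1 (diet E minus diet A), 0 to 2 (diet F minus diet A), 0 to 10 (diet F minus diet E), 0 to 2 (diet H minus diet E) and 0 to 0 (diet H minus diet F). The count of diet H minus diet A was 2 without diet A replicate 1 and 0 without diet H replicate 2, and that of diet F minus diet E was 10 without diet H replicate 1 and 5 without diet F replicate 4. Counts of 1 or 2 in place of 0 came without diet E replicate 2 or diet H replicate 4 (diet E minus diet A), diet F replicate 1 (diet F minus diet A) and diet A replicate 2 (diet H minus diet E). Of the 2 correlated pairs called, 1 was called with diet means subtracted, 1 without the 2 farthest birds and 0 in the upper range. In the lower range SCG2 with GCG was called (permutation adjusted p = 0.0308) and GCG with NTS was not (permutation adjusted p = 0.382). CHGA with TPH1, not called over all birds, was called there (permutation adjusted p = 0.0277). With a linear term for the title number GCG differed by 0.32 in diet H minus diet A and by 0.57 in diet H minus diet E, and TPH1 by -0.098 in diet F minus diet A. Leaving out single arrays moved diet H minus diet A of CHGA between 0.046 and 0.32, diet H minus diet F of CHGA between 0.030 and 0.27, diet F minus diet E of NTS between -0.54 and -0.17 and diet F minus diet A of TPH1 between -0.48 and -0.16. SCG2 in diet H minus diet A had a limma adjusted p of 0.435 when birds of neighbouring numbers formed a random block (correlation 0.173), of 0.0911 with the range as a block, and of 0.582 with the linear covariate. No paired analysis was possible because title numbers are not shared between diets. The number of arrays limits the precision, and no measure of signal over background was used.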
